A study of Gasterosteus aculeatus with 227 samples.

Results

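Brains of female and male threespine stickleback (Gasterosteus aculeatus) were compared gene by gene, with the genes outside the sex chromosomes as the main subject. Of 227 libraries from the brain, gills and liver of wild fish, 76 enter the comparison, 38 from female brains and 38 from male brains. They were chosen by tissue and labelled sex. The fish came from a natural population in its reproductive period and received no treatment, and the labels give neither age nor breeding stage. RNA of the brain was sequenced from the ends of its polyadenylated transcripts, so a count needs no correction for length. A further 2 brain libraries were left out. Female replicate 8 held only 86631 counts. Male replicate 12 had its X genes 0.32 above its autosomal genes (median of centred log2 levels), where the other males ran from -0.64 to -0.33 and the females from 0.51 to 0.61, and its summed Y level was 1095 CPM (counts per 1000000), against 5178 to 8760 CPM in the other males.

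In vertebrates, sex differences of the brain are studied through sex steroids and the neurons that answer to them. Aromatase turns androgens into oestrogens, and in teleost fish its brain form is made by radial glia, the stem-like glial cells that persist in the adult. Hypothalamic peptides such as GnRH, GHRH, vasotocin and isotocin act on the pituitary and on behaviour. Stickleback have a second route to a sex difference, because males carry a single X beside a Y that has lost many of its genes, so many X genes are present in males as a single copy.

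Total counts per library ran from 9184564 to 16732524 in females and from 8464756 to 17558655 in males. A gene was called sex-biased when its p-value in edgeR's quasi-likelihood test, adjusted after Benjamini and Hochberg for all 18380 genes tested, was under 0.05. Fold changes are female over male on the log2 scale. Of the genes tested, 1331 (7.24%) were called, 850 higher in females (4.62%) and 481 higher in males (2.62%). Both sexes had at least 1 count for 18110 of the genes tested, and 1061 of the called genes were among them. They included 655 X genes, 141 genes not placed on a chromosome, 4 Y genes and all called autosomal genes but 1. The 4 Y genes were all higher in females, who carry no Y, and the reason was not tested. The other called genes, 270 in all, had no count in females, and nearly all of them lay on the Y. The sexes did not overlap in 372 genes (2.02% of those tested), of which 2 were autosomal (0.0130% of the autosomal genes tested). Each comes from a locus without a name. LOC120834575 lay between 0.474 and 3.6 CPM in females and between 10.2 and 126 CPM in males. LOC120812612 had no count in any female and 6.37 to 21.8 CPM in males. Their autosomal place rests on matching names to the gene table, while the genome build behind the counts is not given. Whether reads of Y copies enter the counts of these or other autosomal genes was not tested.

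Autosomal differences were few and mostly small. Of 15418 autosomal genes tested, 262 were called (1.70%), 79 higher in females (0.512%) and 183 higher in males (1.19%). The difference reached 2-fold in 42 of them and stayed under 1.5-fold in 165. Genes higher in females had a median fold of 1.54 and genes higher in males one of 1.32. The split by direction differed in a second fit. Scaled and tested without the X and Y genes, which leaves 17401 genes to adjust over as well as another scaling, it called 135 autosomal genes, 64 higher in females and 71 higher in males, and all 135 were among the 262. The median log2 fold change of all autosomal genes was -0.04 in the first fit and -0.01 in the second. Called genes of low level had the larger differences: the median absolute log2 fold change was 0.65 among 113 called genes averaging 1 to 10 CPM and 0.26 among 26 averaging 100 CPM or more. At low counts only large differences pass the test, so these medians do not describe low-level genes as a whole. The histogram of log2 fold changes shows how narrow the autosomal distribution is beside that of the X.

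**Figure D1:**
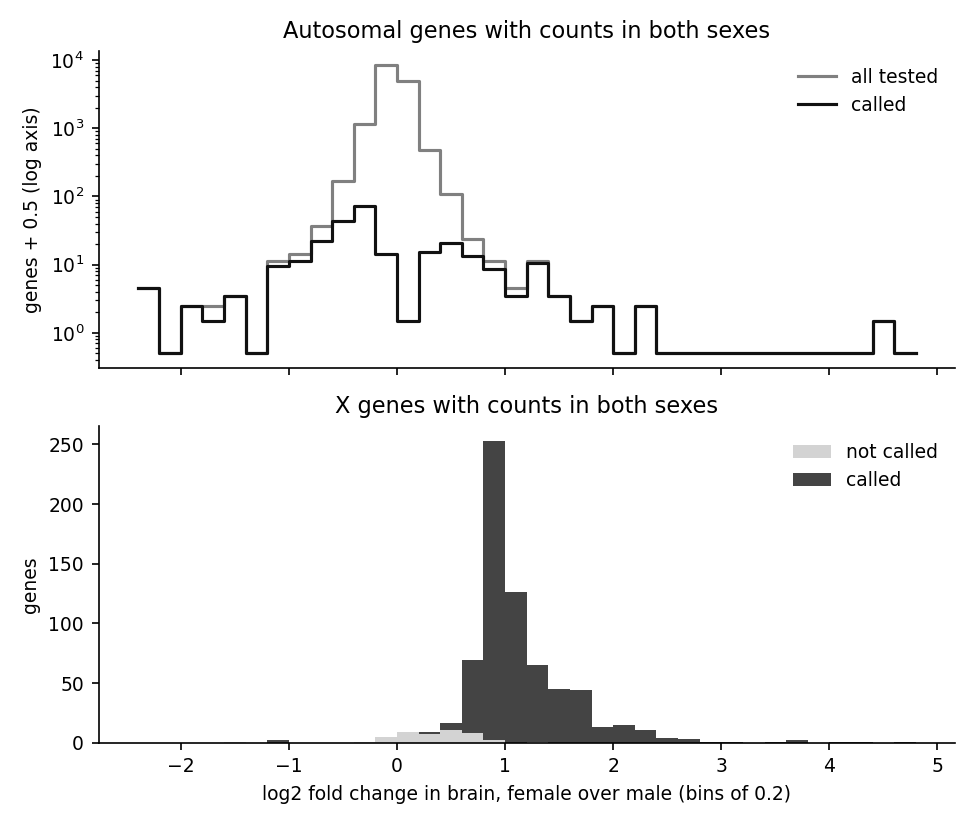
Number of genes by log2 fold change in brain (female over male, x axis, bins of 0.2), for autosomal genes (upper panel, log axis, 0.5 added) and X genes (lower panel). Only genes with counts in both sexes are shown, and the outermost bins hold all values beyond them. Autosomal genes centre near 0 and the called ones (dark line) lie on both sides, while X genes centre near a log2 fold change of 1.

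Among named autosomal genes, hcn3 had the largest female excess. It encodes a subunit of the channels that open on hyperpolarisation and pace the firing of neurons. Its level ran from 0.188 to 8.54 CPM in females, with a median of 1.78, and from 0 to 0.345 CPM in males, with a median of 0.0641. The log2 fold change was 4.41 (SE 0.29, adjusted edgeR p = 3.51e-24), and all 38 females lay above the male median, though the ranges of the sexes touched. Another called channel gene of the autosomes is asic2, an acid-sensing sodium channel of neurons, picked out after its values were seen. It lay between 212.8 and 743 CPM in females (median 387) and between 215.5 and 497 CPM in males (median 322), and its log2 fold change was 0.25 (SE 0.08, adjusted edgeR p = 0.0240).

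il12ba followed hcn3. It encodes a subunit of interleukin 12, a cytokine that steers T cell responses. Female brains held 1.13 to 17.9 CPM (median 5.76) and male brains 0.0625 to 2.83 CPM (median 1.08), a log2 fold change of 2.39 (SE 0.19, adjusted edgeR p = 2.47e-19). dnmt3bb.1 encodes a DNA methyltransferase that sets new methylation marks. In females it lay between 1.54 and 34.8 CPM (median 10.4) and in males between 1.66 and 8.89 CPM (median 3.4), a log2 fold change of 1.67 (SE 0.15, adjusted edgeR p = 4.30e-17). A single female, the lowest of all brains for this gene, lay below the male median, and no male reached the female median.

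The most abundant of these genes was st8sia5, a sialyltransferase that builds gangliosides, the sialic acid lipids of neuronal membranes. It ranged from 88.1 to 827 CPM in females (median 276) and from 49.4 to 179 CPM in males (median 96.1), a 2.96-fold difference (log2 fold change 1.57, SE 0.12, adjusted edgeR p = 3.50e-20), with 37 of 38 females above the male median. ecm1b, a matrix protein, stood at 28 to 106 CPM in females (median 55.6) and 11.8 to 49.8 CPM in males (median 24.2), a 2.18-fold difference (SE of the log2 value 0.11, adjusted edgeR p = 1.04e-15). ppp1r15b directs protein phosphatase 1 to the initiation factor eIF2 alpha. It ran from 8.56 to 25.9 CPM in females (median 14.3) and from 2.59 to 11.9 CPM in males (median 5.2), a 2.49-fold difference (adjusted edgeR p = 9.81e-19). For each of these 3 genes the ranges of the sexes overlapped, but no male reached the female median.

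Of the remaining 6 leading genes, all under 10 CPM in median in both sexes, cib3 codes for a calcium-binding protein that zebrafish and mouse hair cells need, and its log2 fold change was 1.55 (SE 0.17, adjusted edgeR p = 7.84e-13). pax9, a transcription factor of pharyngeal pouch and tooth development in the mouse, had 1.33 (SE 0.18, adjusted edgeR p = 1.72e-09). The values for hrh2a, a histamine receptor, and slc7a2, a carrier of arginine and lysine, were both 1.28 (SE 0.16 and 0.21). ptprb, a receptor phosphatase of blood vessel endothelium, had 1.13 (SE 0.15), and hnf4g, a nuclear receptor, had 1.02 (SE 0.23). Between 35 and 38 of the 38 females lay above the male median for each.

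Higher levels in males were led by dkk2 and ghrh. dkk2 encodes a secreted modulator of Wnt signalling. It lay between 1.54 and 8.74 CPM in females (median 2.67) and between 6.48 and 21.9 CPM in males (median 12.2), a log2 fold change of -1.99 (SE 0.12, adjusted edgeR p = 1.85e-25). No female reached the male median, and all males lay above the female median. ghrh, the hypothalamic peptide that releases growth hormone from the pituitary, ran from 0.259 to 3.5 CPM in females (median 1.61) and from 0.884 to 14.3 CPM in males (median 6.71). Its log2 fold change was -1.94 (SE 0.17, adjusted edgeR p = 3.62e-17), and 36 of 38 males lay above the female median. ghrhrb, named for a receptor of that peptide and picked out after its values were seen, differed far less: 11.6 to 29.3 CPM in females (median 19.2) and 14.7 to 32 CPM in males (median 24.6), a log2 fold change of -0.21 (SE 0.07, adjusted edgeR p = 0.0412) that was called in 7 of 16 alternative settings.

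olfm2a encodes a secreted olfactomedin, a family found in the extracellular matrix of the nervous system. It was the most abundant of the leading genes higher in males, at 33 to 113 CPM in females (median 59.2) and 110 to 393 CPM in males (median 156), and the ranges met only at their edges. Its log2 fold change was -1.46 (SE 0.09, adjusted edgeR p = 2.85e-26). mbd3b, a subunit of the nucleosome remodelling and deacetylase complex, had 45.4 to 138 CPM in females (median 61.3) and 96.9 to 217.9 CPM in males (median 120), a log2 fold change of -0.85 (SE 0.08, adjusted edgeR p = 3.82e-16). All males lay above the female median for both genes.

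anks6, a protein of primary cilia, had a log2 fold change of -1.05 (SE 0.09, adjusted edgeR p = 4.58e-18), with medians of 5.04 CPM in females and 10.9 CPM in males. kiz, which stabilises spindle poles at the centrosome, had -0.82 (SE 0.09, adjusted edgeR p = 9.23e-13). acin1b, a nuclear protein of RNA processing, had -0.88 (SE 0.10, adjusted edgeR p = 2.31e-12), and tlx2, a homeobox factor of enteric neurons in the mouse, had -0.85 (SE 0.18, adjusted edgeR p = 0.000229). gatm catalyses the committed step of creatine synthesis and reached -1.10 (SE 0.25, adjusted edgeR p = 0.000603). It kept its call in 15 of 16 alternative settings, and lost it with the replicate number as a block (-0.79, adjusted edgeR p = 0.0738). postnb, a periostin of the matrix, had -1.01 (SE 0.29, adjusted edgeR p = 0.0143) and was not called without its highest library (log2 fold change -0.86). It kept its call in 12 of 16 alternative settings. cubn, part of the receptor for vitamin B12 bound to intrinsic factor, was called at -1.54 (SE 0.41, adjusted edgeR p = 0.00569), but its medians were 0.669 CPM in females and 0.684 CPM in males. A single male brain with 58 CPM made that difference, and without it the log2 fold change was 0.15 (adjusted edgeR p = 0.888).

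**Figure D2:**
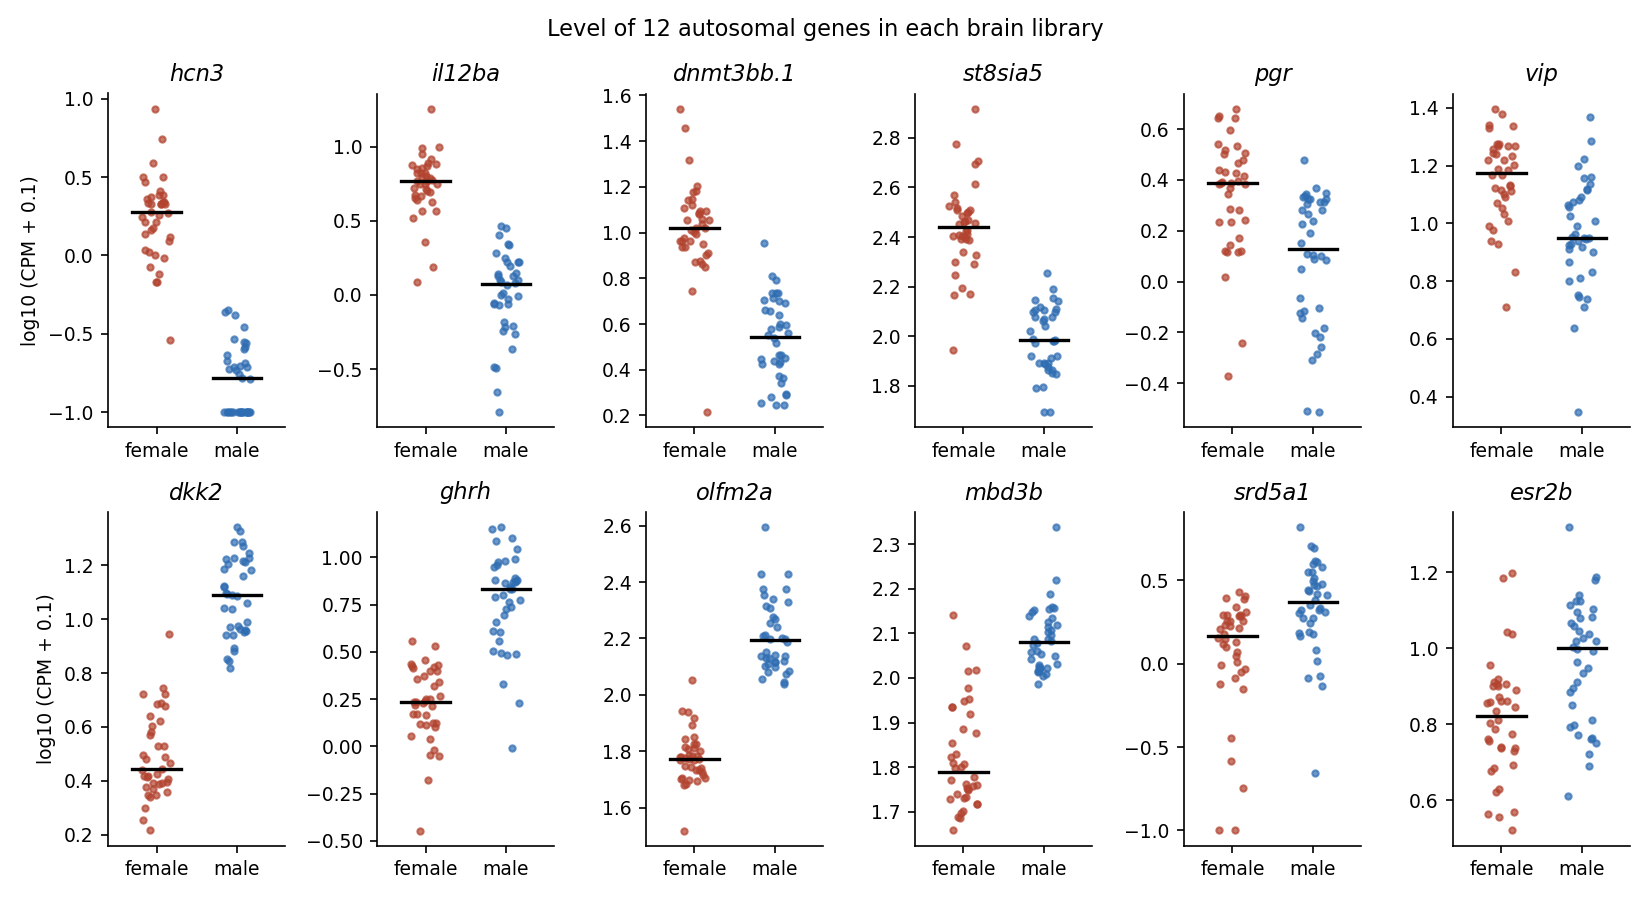
Level of 12 autosomal genes in each brain library (y axis, log10 of CPM with 0.1 added, a scale of its own for each gene), females left and males right, with the median as a black line. The upper 6 genes were higher in females and the lower 6 in males, and in all of them the points of the sexes overlap or touch.

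Genes of sex steroid synthesis and the steroid receptors were described as a list, chosen with earlier results of these data known. Of 29 members tested, 5 were higher in females and 2 higher in males, beside 4.62% and 2.62% of all genes tested. The median log2 fold change was -0.04, beside -0.03 over all genes tested. On the autosomes 4 of 26 were called, beside 1.70% of autosomal genes, and the called members split evenly. pgr, the nuclear progesterone receptor, ran from 0.323 to 4.69 CPM in females (median 2.34) and from 0.207 to 2.9 CPM in males (median 1.25), a log2 fold change of 0.83 (SE 0.18, adjusted edgeR p = 0.00027), with 31 of 38 females above the male median. hsd11b2 inactivates cortisol and in fish takes part in making 11-ketotestosterone, and its log2 fold change was 0.51 (SE 0.15, adjusted edgeR p = 0.0155). It kept its call in 15 of 16 alternative settings. The exception was the fit without the brains low in pituitary transcripts, described below (0.48, adjusted edgeR p = 0.0757). srd5a1, a 5-alpha-reductase that makes dihydrotestosterone, lay between 0 and 2.57 CPM in females (median 1.37) and between 0.121 and 6.48 CPM in males (median 2.23), a log2 fold change of -0.89 (SE 0.21, adjusted edgeR p = 0.00120). esr2b, one of the fish oestrogen receptors, stood at 3.21 to 15.7 CPM in females (median 6.54) and 3.98 to 20.7 CPM in males (median 9.9), a log2 fold change of -0.51 (SE 0.12, adjusted edgeR p = 0.00113). The other oestrogen receptors and the androgen receptor did not pass the test, with log2 fold changes of -0.21 for esr1 (SE 0.10, adjusted edgeR p = 0.366), -0.04 for esr2a (SE 0.11, adjusted edgeR p = 0.959) and -0.20 for ar (SE 0.12, adjusted edgeR p = 0.505).

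The members on the X were all higher in females. cyp19a1b, the brain aromatase, ran from 61.3 to 413 CPM in females (median 184) and from 19.9 to 219 CPM in males (median 94.6). This was a 2.01-fold difference (log2 fold change 1.01, SE 0.12, adjusted edgeR p = 5.75e-11), next to a median log2 fold change of 0.99 over the 701 X genes tested. A single male lay above the female median. hsd17b12a, a reductase of steroid and fatty acid synthesis, had 0.90 (SE 0.09, adjusted edgeR p = 1.16e-14), and cyp11a1.2, a form of the enzyme that cleaves the side chain of cholesterol, had 0.65 (SE 0.21, adjusted edgeR p = 0.0339).

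Of 46 genes for neuropeptides and their receptors, 4 were higher in females and 3 in males, with a median log2 fold change of -0.01. The shares over all genes tested were 4.62% and 2.62%. Of the 40 on autosomes, 1 was higher in females and 3 in males, beside 0.512% and 1.19% of autosomal genes. Without the X and Y genes, 2 of 43 were called, beside 270 of all 17401 genes tested. Beside ghrh, the autosomal members called were vip, pmch and crhb. vip, vasoactive intestinal peptide, a neuropeptide that in vertebrates also releases prolactin, ranged from 5.05 to 24.9 CPM in females (median 14.9) and from 2.12 to 23.3 CPM in males (median 8.83). Its log2 fold change was 0.58 (SE 0.13, adjusted edgeR p = 0.000255), with 34 of 38 females above the male median. pmch, which encodes melanin-concentrating hormone, a peptide of feeding and of skin colour in fish, had medians of 57.2 CPM in females and 90.9 CPM in males. Its ranges, 0.792 to 134 CPM in females and 1.5 to 203.95 CPM in males, overlapped almost throughout, and the log2 fold change was -0.66 (SE 0.19, adjusted edgeR p = 0.0147). It was not called with voom (-0.56, adjusted p = 0.384) or with X and Y genes left out (-0.64), and kept its call in 13 of 16 alternative settings. crhb, corticotropin-releasing hormone of the stress axis, had -0.37 (SE 0.12, adjusted edgeR p = 0.0427) and was not called without its highest library (-0.33). It kept its call in 12 of 17 alternative settings.

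The peptides best known from reproduction did not pass the test. The log2 fold change was 0.11 for gnrh3 (SE 0.15, adjusted edgeR p = 0.882), 0.05 for gnrh2 (SE 0.15, adjusted edgeR p = 0.963), 0.14 for oxt, the isotocin gene (SE 0.25, adjusted edgeR p = 0.916), and 0.00 for avp, the vasotocin gene (SE 0.21, adjusted edgeR p = 0.999). The X members differed. avpr1aa, a vasotocin receptor, lay between 3.8 and 12.6 CPM in females (median 6.38) and between 1.06 and 6.22 CPM in males (median 2.72), a log2 fold change of 1.13 (SE 0.12, adjusted edgeR p = 5.51e-14), and no male reached the female median. gnrhr4, a GnRH receptor, had 0.89 (SE 0.18) and nts, neurotensin, 0.79 (SE 0.13), with adjusted edgeR p-values of 6.08e-05 and 5.10e-07.

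Further peptide and hormone genes of the autosomes were called outside the lists and were picked out after their values were seen. sstr1b, a somatostatin receptor, had a log2 fold change of -0.33 (SE 0.08, adjusted edgeR p = 0.000516) and was called in all 16 alternative settings. inha, the inhibin alpha subunit, had -0.64 (SE 0.20, adjusted edgeR p = 0.0278), ostn, a natriuretic-peptide-related hormone, -0.64 (SE 0.19, adjusted edgeR p = 0.0168), and urp2, a urotensin-related peptide, -0.57 (SE 0.19, adjusted edgeR p = 0.0419). Those 3 were called in 10, 10 and 11 of 15 alternative settings. Higher in females were igf2r, which clears insulin-like growth factor 2 (0.41, SE 0.11, adjusted edgeR p = 0.00606), and aldh1a2, which makes retinoic acid (0.50, SE 0.12, adjusted edgeR p = 0.00118).

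Pituitary hormone transcripts fell into a low and a high group of brains in both sexes. The sum over 11 pituitary hormone and pituitary factor genes lay between 58.8 and 268 CPM in 9 of 38 female brains and between 65.1 and 221 CPM in 7 of 38 male brains. In the others it ran from 3527 to 15467 CPM in females and from 1615 to 14709 CPM in males, with no brain between these groups. None of the 11 members passed edgeR's adjusted test, DESeq2 or voom, and 2 had an unadjusted edgeR p under 0.05. With surrogate variables in the fit 3 of the 11 were called, 1 higher in females and 2 higher in males, and with the log2 sum of the list as a term 1 was called. Of all 18380 genes tested, these fits called 1949 and 1328. The gonadotropin subunits lhb (log2 fold change 0.32, SE 0.50), cga (-0.09, SE 0.48) and fsh-beta (-0.26, SE 0.46), the last of them added after the data were seen, were not called by edgeR. Without the 16 brains under 1000 CPM, 308 autosomal genes were called, 84 of them higher in females, and 191 of them were among the 262. With the log2 sum as a term in the fit the number was 260.

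**Figure D3:**
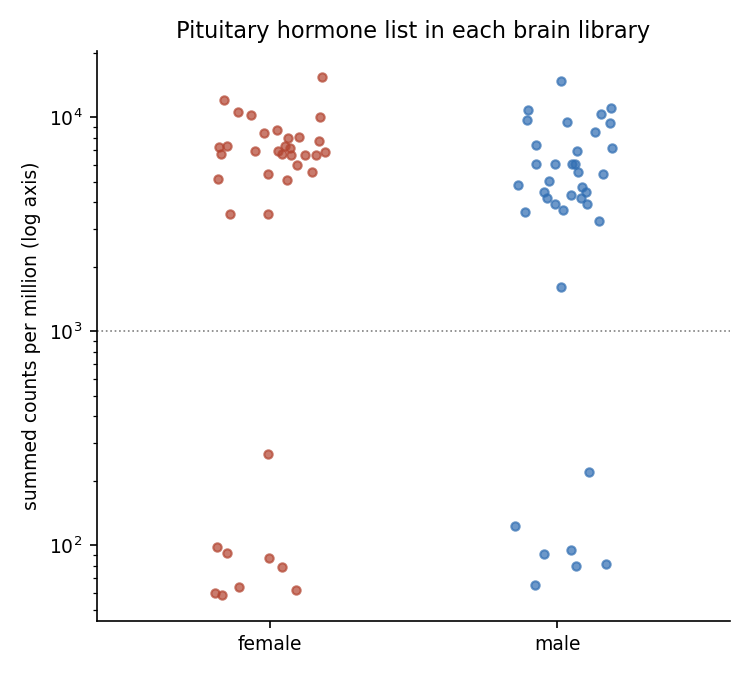
Summed level of 11 pituitary hormone and pituitary factor genes in each brain library (y axis, CPM on a log axis), females left and males right, with 1000 CPM as a dotted line. In each sex a group of brains, 9 females and 7 males, sits under the line and the rest well above it.

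Neurotransmission genes were described as 3 lists. The first held 41 genes for enzymes and transporters of monoamines, GABA, glutamate and acetylcholine. Of these, 6 were higher in females, all on the X, and 1 was higher in males, beside 4.62% and 2.62% of all genes tested. Of all X genes tested, 93.2% were higher in females, and the median log2 fold change on the X was 0.99. The member higher in males was the only one called by edgeR of 35 autosomal members, beside 1.70% of autosomal genes. The member was slc6a2, the noradrenaline transporter, with 17.7 to 35.3 CPM in females (median 25.6) and 6.81 to 47.4 CPM in males (median 31.4), a log2 fold change of -0.28 (SE 0.08, adjusted edgeR p = 0.0139). It was not called with X and Y genes left out (-0.25) or with voom (-0.24), and kept its call in 13 of 17 alternative settings. th, tyrosine hydroxylase, the rate-limiting enzyme of dopamine synthesis, separated the sexes: 6.88 to 19.4 CPM in females (median 12.8) and 1.69 to 6.8 CPM in males (median 4.37), a log2 fold change of 1.61 (SE 0.10, adjusted edgeR p = 1.81e-26). slc1a2b, a glial glutamate transporter, also did so, at 3054 to 6245 CPM in females (median 4556) and 751 to 2459 CPM in males (median 1625), a log2 fold change of 1.44 (SE 0.07, adjusted edgeR p = 1.18e-31). Both tryptophan hydroxylases, the first enzymes of serotonin synthesis, were higher in females, tph1a by 0.91 (SE 0.17) and tph2 by 0.74 (SE 0.12). So were the vesicular glutamate transporters slc17a6a (0.94, SE 0.10) and slc17a8 (2.36, SE 0.22).

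Of 83 voltage-gated channel subunits, 6 were higher in females and none in males, beside 4.62% and 2.62% of all genes tested, and with surrogate variables 6 and 3 were. On the autosomes hcn3 was the only one called by edgeR of 75 tested, beside 1.70% of autosomal genes. kcnc1b and kcnq1.2 lie on the X, with log2 fold changes of 1.01 (SE 0.08) and 0.86 (SE 0.21). The others, kcna1a, kcng4a and cacna2d4b, were not placed on a chromosome. kcna1a, a potassium channel subunit of axons, ran from 24.9 to 89.3 CPM in females (median 59.5) and from 17.8 to 43.7 CPM in males (median 28.1), a log2 fold change of 1.08 (SE 0.08, adjusted edgeR p = 1.31e-20). Among 57 ligand-gated receptor subunits, 2 were higher in males, beside 2.62% of all genes tested. Both were among the 54 on autosomes, where 1.19% of genes tested were higher in males. The count of called ligand-gated subunits was 1 with voom or without the X and Y genes. Surrogate variables gave 6, of which 2 were higher in females. The fit with surrogate variables called 1949 of all 18380 genes tested, against 1331 without them. gabrg1, a GABA-A receptor subunit, had medians of 17.9 CPM in females and 25.8 CPM in males, and a log2 fold change of -0.44 (SE 0.09, adjusted edgeR p = 5.53e-05). chrna5, a nicotinic receptor subunit, had -0.26 (SE 0.08, adjusted edgeR p = 0.0317) and was not called without its highest library (-0.24). It kept its call in 12 of 17 alternative settings. None of 18 immediate early genes, which report recent neuronal activity, was called by edgeR, DESeq2 or voom, and 1 had an unadjusted edgeR p under 0.05.

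Cell type markers were summed per brain. Each list was detected: neuron markers had a median sum of 8809 CPM in females and 8911 CPM in males, and none of 16 was called by edgeR, DESeq2 or voom or reached an unadjusted edgeR p under 0.05. In bulk tissue, fewer cells of a type and less RNA per cell cannot be told apart. Myelin and oligodendrocyte markers summed to a median of 5937 CPM in females and 5127 CPM in males, and 3 of 14 members tested were called, beside 7.24% of all genes. All 3 were among the 13 on autosomes, where 1.70% of genes tested were called. With surrogate variables 7 of the 14 were called, 5 of them higher in females, and without the brains low in pituitary transcripts 1 was. Over all genes, those fits called 1949 of 18380 and 1378 of 18386 tested. The counts listed plp1a and mbpb at 0 in all brains. mbpa, myelin basic protein, ran from 1750 to 6202 CPM in females (median 2842) and from 1288 to 3798 CPM in males (median 2226), a log2 fold change of 0.32 (SE 0.09, adjusted edgeR p = 0.0108). nkx2.2a and sox10, transcription factors of the lineage, were higher in males, with -0.28 for nkx2.2a (SE 0.07, adjusted edgeR p = 0.00219) and -0.39 for sox10 (SE 0.09, adjusted edgeR p = 0.000629). Without the brains low in pituitary transcripts, mbpa (0.29) and nkx2.2a (-0.23) were not called.

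Radial glia markers summed to a median of 10003 CPM in females and 7106 CPM in males. The members called, 2 of 13 tested, were slc1a2b and cyp19a1b on the X, beside 7.24% of all genes tested. The 11 autosomal markers alone summed to a median of 4992 CPM in females and 5304 CPM in males, and none of the 10 tested was called by edgeR or had an unadjusted p under 0.05. Of this list, nes was at 0 in all brains. Microglia markers had medians of 1330 CPM in females and 1463 CPM in males, with 0 of 16 called by edgeR, 1 by DESeq2, 0 by voom and 1 at an unadjusted edgeR p under 0.05. Endothelial and mural markers had 438 and 421 CPM in females and males. Of 24 members 1 was called, vwf on the X, beside 7.24% of all genes tested. None of the 22 on autosomes was called by edgeR, beside 1.70% of autosomal genes. Erythrocyte markers summed to 71.8 to 236 CPM in females (median 106) and 76.3 to 154 CPM in males (median 110). slc4a1a, the anion exchanger of red cells, was the 1 member called of 11 tested, beside 1.70% of autosomal genes. It ran from 0.474 to 42.8 CPM in females (median 10.8) and from 2.36 to 13.3 CPM in males (median 6.2). Its log2 fold change was 0.97 (SE 0.20, adjusted edgeR p = 8.35e-05). The median log2 fold change of the 11 erythrocyte genes tested was 0.29. Muscle markers reached 1332 CPM in the highest female and 3620 CPM in the highest male, against medians of 326 and 320 CPM, and none of 16 was called by edgeR or voom, 2 by DESeq2 and 6 at an unadjusted edgeR p under 0.05. Ependymal and photoreceptor markers had no member called by these tools, with 3 and 0 at an unadjusted edgeR p under 0.05. For that unadjusted threshold no share over all genes is given, so no excess is read from those counts.

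Of 99 nuclear genes of the respiratory chain, 3 were higher in males and 1, ndufa9a on the X, was higher in females. Of the 97 on autosomes 2 were called, beside 1.70% of autosomal genes. An unadjusted edgeR p under 0.05 was reached by 32 of the 99. No share over all genes is given for that threshold, so no excess is read from this count. The called autosomal members were atp5f1b, a subunit of ATP synthase, with -0.23 (SE 0.06, adjusted edgeR p = 0.00372), and ndufa3, a subunit of complex I, with -0.19 (SE 0.06, adjusted edgeR p = 0.0221). Without the X and Y genes none of 98 members was called, with -0.21 for atp5f1b (adjusted edgeR p = 0.0588) and -0.17 for ndufa3 (adjusted edgeR p = 0.226). The median over the list was -0.16, and it stayed between -0.22 and -0.08 under the alternative settings. In all, 91 of the 99 members had a value below 0, as did 61.5% of all genes tested. The number of called members was 10 without the brains low in pituitary transcripts, a fit that called 1378 of all 18386 genes tested. It was 21 with surrogate variables, a fit that called 1949 of all 18380 genes tested. Cytosolic ribosomal protein genes had 3 of 76 called and proteasome subunits 2 of 40, all on the X and higher in females, beside 7.24% of all genes tested. These were all the X members tested, beside 93.2% of X genes higher in females. None of the 69 and 37 autosomal members was called by edgeR, beside 1.70% of autosomal genes. The ribosomal count was 6, of which 3 were higher in males, without the brains low in pituitary transcripts, and 7 with surrogate variables.

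Among 26 cell cycle genes, all autosomal, 1 was called, beside 1.70% of autosomal genes. This was kif11, the spindle motor, higher in females with 0.57 (SE 0.15, adjusted edgeR p = 0.00289). ccnd3, a D-type cyclin outside that list, was picked out after its values were seen and had 0.99 (SE 0.26, adjusted edgeR p = 0.00374). It was called in 14 of 15 alternative settings. Of 16 germ cell and gonad genes, 2 were called, beside 7.24% of all genes, and of 15 on autosomes 1 was, beside 1.70%. sycp1, a core protein of the synaptonemal complex of meiosis, ran from 0.517 to 7.95 CPM in females (median 2.5) and from 0.747 to 6.92 CPM in males (median 3.9), a log2 fold change of -0.60 (SE 0.16, adjusted edgeR p = 0.00440). sycp3, a protein of the same complex, lies on the X and had 1.02 (SE 0.08, adjusted edgeR p = 2.42e-20). Of 20 genes of antigen presentation and the interferon response, 2 were higher in females and 1 in males, beside 4.62% and 2.62% of all genes tested. Those higher in females were nlrc5 on the X and irf7, which is not placed. socs1b, an inhibitor of cytokine signalling, was higher in males (-0.38, SE 0.11, adjusted edgeR p = 0.0199). It was the only one called of 18 autosomal members, beside 1.70% of autosomal genes. With surrogate variables 6 of the 20 were called, 4 of them higher in males, in a fit that called 1949 of all 18380 genes tested. Without the X and Y genes 1 was called, beside 270 of all 17401 genes tested, and socs1b was not (-0.35). In 13 of 17 alternative settings socs1b kept its call. dnmt3bb.1 was the only one of 33 chromatin genes called. The list had 31 autosomal members, so this was 1 of 31, beside 1.70% of autosomal genes.

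On the X, 653 of 701 genes tested were higher in females (93.2%) and 3 were higher in males. The female to male ratio lay between 1.5 and 2.5 for 491 genes and reached 2.5 for 167. It was at least 4 for 41 genes. Not called were 45 genes, of which 30 averaged under 5 CPM. The largest ratio among named X genes was that of ankrd34c, an ankyrin repeat protein, at 0 to 8.01 CPM in females (median 3.78) and 0 to 0.866 CPM in males (median 0.138), a log2 fold change of 4.26 (SE 0.28, adjusted edgeR p = 1.12e-23). arl2bp, which binds the small GTPase ARL2, had 4.93 to 14.6 CPM in females (median 7.2) and 0.0761 to 1.56 CPM in males (median 0.496), and a log2 fold change of 3.72 (SE 0.16, adjusted edgeR p = 1.37e-36). ndufa9a, a subunit of complex I, had 40.5 to 158 CPM in females (median 89.1) and 2.99 to 16 CPM in males (median 6.98), a 12.7-fold difference. The sexes did not overlap for arl2bp or ndufa9a.

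The log2 fold changes of rccd1, selenoo1 and nap1l4a were 2.75 (SE 0.15), 2.70 (SE 0.16) and 2.68 (SE 0.08). nap1l4a is a histone chaperone and selenoo1 a selenoprotein of mitochondria. Members of the gene lists on the X mostly stood close to 2-fold. rpl4, a protein of the large ribosomal subunit, had medians of 543 CPM in females and 272 CPM in males (log2 fold change 1.03, SE 0.08). rps13 had 0.88 (SE 0.09), psma1 0.93 (SE 0.12) and psma4 0.84 (SE 0.09). Members further above 2-fold included rpl27a, another ribosomal protein, with medians of 445 CPM in females and 106 CPM in males (log2 fold change 1.99, SE 0.10, adjusted edgeR p = 2.38e-31). nlrc5, which drives MHC class I genes in mammals, had 1.74 (SE 0.18), and vwf, von Willebrand factor, 1.31 (SE 0.15). th, slc1a2b, slc17a8, ndufa9a and avpr1aa, given above, were also over 2-fold. myrf, a factor of myelination, and rlbp1b, a retinal carrier protein, lie on the X too and did not pass the test, with 0.25 (SE 0.10, adjusted edgeR p = 0.118) and 0.55 (SE 0.34, adjusted edgeR p = 0.557). X genes with a near-identical Y copy are uncertain, since reads of the copies could have been split or dropped.

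**Figure D4:**
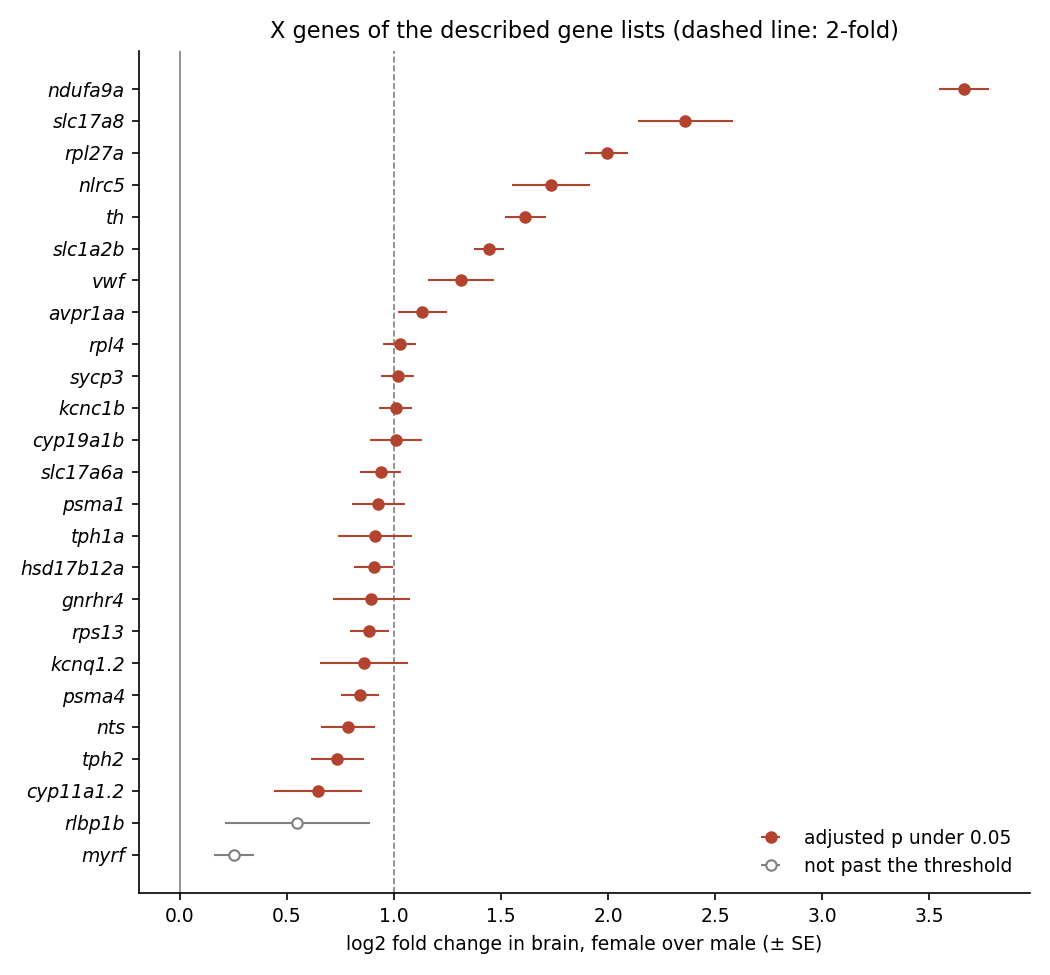
Log2 fold change in brain (x axis, female over male, bars 1 SE) of the X genes that belong to the gene lists described, with a dashed line at 2-fold. Of the genes shown, 2 (myrf and rlbp1b) did not pass the test, and the others lie between 0.65 for cyp11a1.2 and 3.66 for ndufa9a.

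Genes not placed on a chromosome numbered 1986 among those tested, and 153 were called (7.70%), 114 higher in females and 39 higher in males. Most unplaced genes had no match in the gene table, and a few had a symbol found on several chromosomes. fnbp4, a protein that binds formin, separated the sexes at 165 to 586 CPM in females (median 280) and 21.1 to 51.7 CPM in males (median 34), an 8.96-fold difference (adjusted edgeR p = 1.15e-50). ldha, a subunit of lactate dehydrogenase, ran from 78.7 to 408 CPM in females (median 233.2) and from 19.5 to 89 CPM in males (median 36.1), a 6.36-fold difference (adjusted edgeR p = 6.49e-38). gdpgp1, a phosphorylase of GDP-glucose, and cpt1ab, the carnitine transferase that admits fatty acids to mitochondria, had log2 fold changes of 2.57 (SE 0.18) and 2.33 (SE 0.19). Higher in males were atp6v1e1a, a subunit of the proton pump (-1.04, SE 0.18, adjusted edgeR p = 4.20e-06), acana, the matrix proteoglycan aggrecan (-0.66, SE 0.14), zdhhc20b, an enzyme that adds palmitate to proteins (-0.59, SE 0.14), and muc15, a mucin (-0.60, SE 0.19, adjusted edgeR p = 0.0308). Without its highest library muc15 was not called (-0.52), and it kept its call in 11 of 16 alternative settings. Whether these genes lie on a sex chromosome was not tested.

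Gills of fish of the same population, 71 libraries largely from the same fish, gave a second tissue. Of the 262 autosomal genes called in brain, 225 were tested in gills and 72 of these were called there (32.0%, beside 8.39% of all autosomal genes tested in gills). The direction was the same for 68 and opposite for 4. Among genes with at least a 2-fold difference in brain, 21 of 33 were called in gills, 19 of them in the same direction. Shared differences include il12ba (gill log2 fold change 1.83), st8sia5 (1.83), ppp1r15b (1.40), dnmt3bb.1 (1.21), ptprb (1.16) and cib3 (1.12) in the female direction, and acin1b (-1.46), kiz (-1.12), srd5a1 (-0.81), dkk2 (-0.63) and esr2b (-0.39) in the male direction, each called in gills. A test of the difference itself, an interaction of sex and tissue fitted with edgeR, was passed by 63 of the 262 genes, beside 607 of all 19753 genes tested (3.07%). These 63 include 5 of the 37 genes not tested in gills, so 58 of the 225 tested in both tissues passed it. The brain values that chose the 262 genes enter this test too. The fit had no term for the fish, so brain and gill libraries of the same fish were treated as independent. pax9 was higher in females in brain but had a gill value of -0.05 (SE 0.08), and anks6 was higher in males in brain with a gill value of -0.13 (SE 0.11); the interaction was called for both (adjusted edgeR p = 1.53e-08 and 1.46e-07). Also cyp19a1b differed between the tissues, with -0.24 in gills, where it averaged 1.61 CPM in females and 1.89 CPM in males (interaction adjusted edgeR p = 3.83e-05). olfm2a had the same direction in gills but a far larger difference, -5.50 (SE 0.26).

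**Figure D5:**
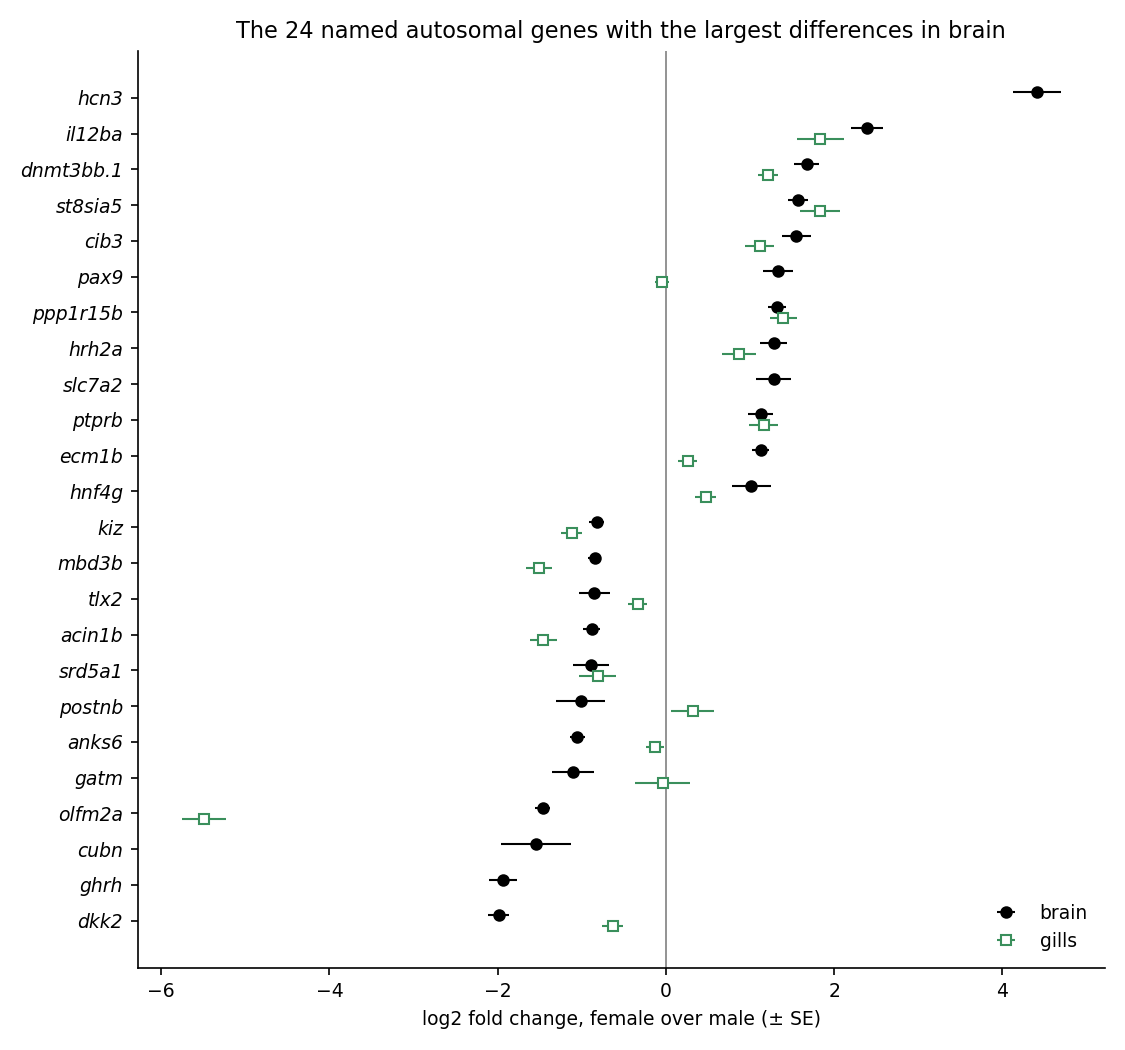
Log2 fold change (x axis, female over male, bars 1 SE) in brain (filled circles) and gills (open squares) of the 24 named autosomal genes with the largest differences in brain, 12 in each direction. hcn3, slc7a2, cubn and ghrh have no gill value, because they were not tested there. Most gill values lie on the same side of 0 as the brain values, and olfm2a is the farthest from its brain value.

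Of the 262 called autosomal genes, 18 (6.87%) had a called gene as the next tested gene on the chromosome, beside 3.37% of autosomal genes tested. nkx2.2a and kiz are neighbours on chromosome 15 and both were higher in males. gabrg1 and hhipl1, also neighbours on chromosome 15, differed in opposite directions, with hhipl1 at 0.48. Whether the deposited counts used the strand is not given in the sources used here, so reads of overlapping neighbours cannot be told apart.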

How the data were processed

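The deposited files hold read counts of the authors, not normalised, in 1 table per tissue with a column for each library. Reads were handled with fastp, STAR and HTSeq per the submitters' processing notes; the genome build, annotation and strand setting are not given in the sources used here. Libraries were made with a QuantSeq FWD kit, per the labels' protocols. Summary lines were left out: reads in no gene were 12.9% ± 0.574 and reads in several genes 4.32% ± 0.281 of the total (SD, n = 76). No column was left unmapped (0). Names and chromosomes came from a RefSeq gene table of assembly fGasAcu3.hap1.1, which matched 21015 of 25994 genes, 19268 by symbol. A further 4933 genes found no match and 46 had a symbol on several chromosomes, and these were left unplaced. No coordinates are printed.

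Females and males were compared with edgeR 4.0.16 in R 4.3.3 (TMM, filterByExpr, robust quasi-likelihood F test, sex as the only term). Each SE is approximate: the absolute log2 fold change divided by the square root of its F statistic. The gill libraries were fitted alike, without the fish of male brain replicate 12. Alternatives used limma 3.58.1, DESeq2 1.42.0 and sva 3.50.0. On simulated data with 18292 genes the fit recovered 85 of 100 changes of 0.5 and 98 of 100 of 1 (log2), with 10 false calls. The changed genes were drawn from the better counted ones, equally in both directions, and no X or Y difference was simulated. These rates therefore need not hold for the real data. Each library is labelled as a biological replicate, and no pair of the same sex agreed within sampling noise (smallest chi-square per degree of freedom 12.3). Genes named by rule are those with counts in both sexes, a mean of at least 1 CPM and an informative symbol: the 12 autosomal genes per direction with the largest change, the leading X and unplaced genes, and every called autosomal list member. Other list members, and genes picked out after their values were seen, are named beside them. The members and lists were chosen with earlier results of these data known. Lists of gonadotropin and liver genes were added after the data were seen. Counts of list members with an unadjusted edgeR p under 0.05 are given without the share over all genes, so no excess is read from them. The replicate numbers do not pair the fish. Deviations of the 37 same-numbered pairs had a median correlation of -0.038, beside -0.003 for other pairs. In 12 of the 37 the correlation was over 0.1. Liver libraries were not analysed here.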

Additional observations from a re-analysis of the deposited data

Results flagged for a closer look

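The sex difference in brain differed from that in gills, by the sex-by-tissue interaction at an edgeR adjusted p under 0.05, for 20 of the named genes and called list members. Of all 19753 genes tested, 607 passed it (3.07%). The brain differences that chose most of the genes named enter this test too, so no excess among them is read from the count. Values are the log2 difference (female minus male) of brain minus that of gills. On the autosomes, pax9 had 1.38 and ecm1b 0.85, each with the larger female excess in brain. For dkk2 (-1.37), postnb (-1.35), anks6 (-0.93), sycp1 (-0.75) and atp5f1b (-0.38) the brain value was the more negative. The opposite held for olfm2a (4.00), gabrg1 (0.96) and mbd3b (0.63), which were higher in males in both tissues and more so in gills. On the X, arl2bp had 1.38, cyp19a1b 1.25, slc17a6a 1.17 and kcnc1b 0.90. Among genes not placed on a chromosome, kcng4a had 0.61, muc15 -0.66 and atp6v1e1a -0.93. hcn3 (4.17), ghrh (-1.75) and kcna1a (0.92) passed the interaction too, but they fell below the filter on low counts in the gill fit and entered through brain, so no difference between the tissues is read from them.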

How the results depend on the processing

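Counts of called genes moved by more than 1.5 times in 4 settings. Without a filter on low counts, 117 autosomal genes of at least 2-fold and 285 unplaced genes were called. Requiring at least 10 counts in every library gave 677 genes in all, 143 autosomal, 10 autosomal of at least 2-fold and 82 unplaced, with fewer genes tested. Scaling and testing without the X and Y genes called 270 genes in all and 135 autosomal genes. With 12 surrogate variables 806 autosomal genes were called, and the cause was not tested. Elsewhere the autosomal count stayed between 221 and 344, with 314 in DESeq2, 234 in voom and 262 with both left-out libraries added back. The replicate number as a block gave 1280 genes in all and 221 autosomal, 184 of them shared, although the numbers do not pair the fish; 2 females correlated best with the male of their own number. Of the 63 autosomal interactions, 55 were called with other size factors and 57 with voom and the fish as a block. Of the 56 genes named by the rule given above, 42 kept direction and call in all settings run. Genes picked out after their values were seen, and other list members, are not among the 56. cubn reversed to 0.15 without its highest library. With sums of pituitary or of liver plasma protein transcripts as a term, alternatives chosen after seeing the data, 260 and 266 autosomal genes were called; leaving out the brains low in pituitary transcripts was also chosen after seeing the data. Of 348 autosomal genes tested that averaged under 1 CPM, 7 were called (2.01%, beside 1.70% of all autosomal genes tested).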

Other observations

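Transcripts of liver plasma proteins were found in brains of both sexes. The list (fabp10a, fga, fgb, fgg and vtg3) was drawn up after the data were seen. Its sum ran from 2.62 to 197 CPM in females (median 82.9) and from 2.61 to 154 CPM in males (median 55.6), and none of the 5 genes was called by edgeR. vtg3, a vitellogenin, the egg yolk precursor that the liver of females makes, lay between 0.647 and 45.3 CPM in female brains (median 12.5) and between 0.139 and 45.3 CPM in male brains (median 9.75). Its log2 fold change was 0.38 (SE 0.32, adjusted edgeR p = 0.727).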
